A study of Mus musculus with 75 samples.

Results

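The collagen genes of the mouse were followed through liver RNA sequencing of C57Bl/6 mice, all labelled male, whose dams had received tributyltin (TBT), an organotin compound, or vehicle in their drinking water. Members were the protein-coding genes whose symbol reads Col, 1 or 2 digits, the letter a and 1 or 2 digits, and 44 of the 55536 genes in the count table met this rule. By structure they were 11 fibrillar collagens, 6 basement membrane chains of type IV, 6 beaded filament chains of type VI, 9 fibril-associated collagens with interrupted triple helices (FACIT), 2 multiplexins, 3 network chains of types VIII and X, 4 transmembrane collagens and 3 others. Dams drank water with TBT at 3.07 µM, a daily dose of 0.5 mg/kg, until their pups were weaned. Livers were taken at 3 weeks (7 vehicle and 8 TBT samples), at 5 months (8 samples of vehicle mice, 16 of TBT mice called low-risk and 10 of TBT mice called high-risk) and at 10 months (6 vehicle and 5 low-risk TBT samples, 5 uninvolved livers of high-risk TBT mice, and 7 TBT tumors). The labels give 1 strain and sex for all mice, and the groups of an age differed in exposure, in risk label or in tissue. How the 5-month mice were sorted by risk, and how many dams there were, is not stated in the labels, so p-values measure the spread between these samples. A further 10-month library, labelled both vehicle and tumor, entered no comparison.

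Collagens are triple-helical proteins that carry the extracellular matrix. Fibrillar types I, III and V form the fibers of portal tracts and scars, type IV makes basement membranes, type VI forms filaments close to cells, and FACIT members such as types XII and XIV sit on fiber surfaces. In liver, hepatic stellate cells and portal fibroblasts are the main makers of fibrillar collagen, and excess deposition of it is fibrosis. Type XVIII is an exception: hepatocytes express its gene strongly, and endostatin is cut from its C-terminal end. Newly made chains are hydroxylated and folded in the endoplasmic reticulum, trimmed outside the cell and crosslinked by lysyl oxidases.

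RefSeq promoter entries (GRCm38.p6) were found for 35 of the 44 members, and 4 of these are shown over the 250 bases before the transcription start because their genes moved in the comparisons below: Col3a1, Col5a1 and Col6a3 upward and Col13a1 downward in high-risk livers. Col3a1 lies at chr1:45311288-45311537 on the plus strand, Col5a1 at chr2:27886175-27886424 on the plus strand, Col6a3 at chr1:90843972-90844221 on the minus strand and Col13a1 at chr10:61979109-61979358 on the minus strand. Capitals mark matches to TATAAA or to GGGCGG, each searched on both strands (the reverse forms read TTTATA and CCGCCC).
Col3a1: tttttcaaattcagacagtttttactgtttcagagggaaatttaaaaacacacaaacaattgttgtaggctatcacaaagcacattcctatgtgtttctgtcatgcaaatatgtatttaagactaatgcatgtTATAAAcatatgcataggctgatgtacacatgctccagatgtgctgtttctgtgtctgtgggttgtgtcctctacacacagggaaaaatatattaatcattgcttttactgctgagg
Col5a1: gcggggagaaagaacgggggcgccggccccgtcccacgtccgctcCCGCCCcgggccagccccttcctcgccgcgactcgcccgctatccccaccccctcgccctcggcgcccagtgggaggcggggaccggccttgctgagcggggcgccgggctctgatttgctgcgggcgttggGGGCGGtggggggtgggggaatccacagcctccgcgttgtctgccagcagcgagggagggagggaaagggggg
Col6a3: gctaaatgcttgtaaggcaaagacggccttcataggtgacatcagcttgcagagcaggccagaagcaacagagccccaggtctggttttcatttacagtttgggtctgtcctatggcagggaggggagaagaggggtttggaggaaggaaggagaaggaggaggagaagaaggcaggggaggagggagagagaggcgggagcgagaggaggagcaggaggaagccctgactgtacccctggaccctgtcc
Col13a1: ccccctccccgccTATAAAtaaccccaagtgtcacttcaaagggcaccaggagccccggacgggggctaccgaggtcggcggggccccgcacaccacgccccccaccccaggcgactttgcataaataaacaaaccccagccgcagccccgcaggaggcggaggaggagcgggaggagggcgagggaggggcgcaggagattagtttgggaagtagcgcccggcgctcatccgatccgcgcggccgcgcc
TATAAA occurred in the Col3a1 and Col13a1 windows, GGGCGG or its reverse occurred in the Col5a1 window, and the Col6a3 window held neither. Of 38 promoter entries of collagen genes, 5 held TATAAA, 22 held GGGCGG and 13 held CCAAT (reverse ATTGG), against 12.4%, 32.7% and 33.8% of the 32851 mouse promoter windows of this length. Such matches describe the letters only. Col4a1 and Col4a2, the 2 chains of the main type IV molecule, are transcribed away from each other from start sites 21 bases apart, and their first exons share 22 bases at chr8:11312805-11312826. That stretch belongs to both genes and is shown on both strands in lower case, without marking matches. It holds GGGCGG on the Col4a2 strand, which reads CCGCCC on the Col4a1 strand.
Col4a2 strand: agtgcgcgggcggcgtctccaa
Col4a1 strand: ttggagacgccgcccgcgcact

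Library totals ran from 2.832 M to 45.45 M counts (M, 1000000). Of the 75 libraries, 6 deviated technically: they had fewer than 5 M counts, more than 35000 genes detected or a mitochondrial share above 10%. All samples carried the hepatocyte markers: the 6 markers summed to a median of 158734 counts per 1000000 (CPM) in 3-week vehicles and 101826 CPM in 10-month vehicles. Mitochondrial counts took 4.20% to 5.85% of the total in uninvolved livers and 2.64% to 3.83% in the other 10-month groups. The 6 uninvolved libraries were also deeper (34.8 M to 44.6 M counts against 22.5 M to 33.5 M in the vehicle, low-risk and tumor groups) and had more genes detected (24676 to 28715 against 21078 to 23868). These differences moved with the groups, and their part in the results was not tested. In the library labelled TBT 4 of 3 weeks the X-inactivation RNA Xist reached 348 CPM and 4 Y-linked genes (Ddx3y, Eif2s3y, Kdm5d and Uty) summed to 7.08 CPM, where every other library had 93.9 CPM or more of the latter, so this library goes against its male label. Low-risk liver 24 of 5 months had 84.6 CPM of Xist beside 237 CPM of Y-linked genes, and Xist was at 8.39 CPM or less in all other libraries. Fold changes are after TMM scaling. Scaling by library totals alone, chosen after seeing the data, moved the median of all genes upward to 0.29 to 0.38 in the comparisons of high-risk liver or tumor with low-risk or vehicle liver (TMM -0.01 to 0.06), and is named below where it changed a call that is given.

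Col18a1 was by far the most abundant collagen transcript. On the scale of CPM per kilobase of exon it stood at 183 ± 12.4 (SD, n = 6) in 10-month vehicle livers. This scale divides by all annotated exon bases of a gene, whether or not liver transcripts use them. It therefore compares different genes only roughly, and the order of members with similar values depends on it. Col14a1, the FACIT chain of type XIV, followed at 8.37 ± 1.70, the type V chain Col5a3 at 5.92 ± 0.948, Col4a1 at 5.19 ± 0.537 and Col3a1, the type III chain, at 2.93 ± 0.680. Col14a1 lay above Col5a3 by less than the sum of their SDs, and Col5a3 and Col4a1 differed by less than the SD of Col5a3. Col1a1, the main chain of type I collagen, was at only 0.546 ± 0.148, and Col5a2 at 0.275 ± 0.0881. Col18a1 alone held a median of 81.2% of the collagen counts of 10-month vehicles, but 48.0% at 3 weeks, where Col3a1 reached 43.3 ± 11.9 and Col4a1 35.0 ± 7.36 CPM per kilobase. The share of Col18a1 was 34.6% in 5-month high-risk livers against 75.9% in low-risk livers, and 58.9% in 10-month uninvolved livers against 78.2% in low-risk livers. In bulk tissue, more cells of a type and more RNA per cell cannot be told apart.

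**Figure D1:**
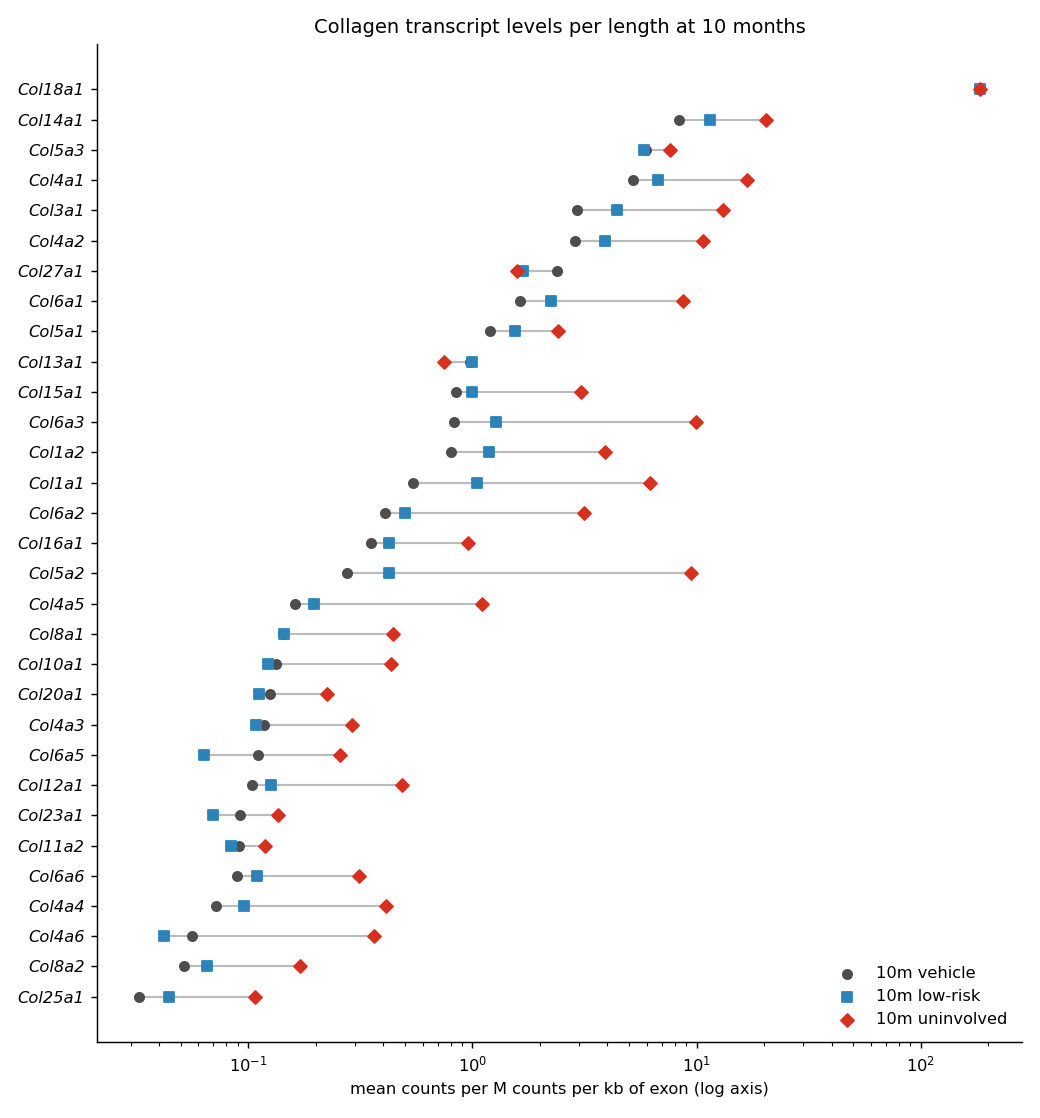
Mean level of each collagen gene in CPM per kilobase of exon (log axis) in 10-month vehicle, low-risk and uninvolved livers, for members that reached 0.1 in any of these groups. Col18a1 stands alone at 183 to 185 in all 3 groups, while Col5a2 lies at 0.275 in vehicles and 9.46 in uninvolved livers.

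Below these, 9 members were too low to be tested in any comparison: Col2a1, Col6a4, Col9a1, Col9a2, Col9a3, Col11a1, Col17a1, Col19a1 and Col26a1, several of which are cartilage or skin collagens. Col26a1 had counts in 21 of the 75 libraries and Col9a1 in 26. No count of Col26a1 was seen in the 10-month vehicle, low-risk, uninvolved or tumor samples, and none of Col2a1 in the 10-month low-risk or tumor samples. Likewise Col9a1 had none in 10-month vehicles and low-risk livers, Col19a1 none in 10-month low-risk livers, and Col9a2 none in tumors. A count of 0 allows up to 3 counts per library, which is 0.0673 to 0.133 CPM over these groups and covers counting error only. Vehicle 9 of 5 months, the shallowest library with 2.832 M counts and 38206 genes detected, held the highest value among 5-month vehicles of Col7a1 (16.2 CPM), Col11a2 (11.3 CPM), Col22a1 and Col24a1 (7.42 CPM each) and Col9a1 and Col28a1 (6.71 CPM each). Between 31 and 34 members were tested in each comparison, and 30 were tested in all of them.

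Collagens called between the ages of vehicle livers were mainly lower in the older group. From 3 weeks to 5 months, among vehicles of sequencing batch 1, 12 of 32 tested members were lower and 2 higher, where 12.3% and 11.9% of all tested genes were called lower and higher (edgeR quasi-likelihood test, Benjamini-Hochberg adjusted p under 0.05). The median log2 fold change of the members was -0.48. Of the 12 lower members 8 had separate ranges, where 5.51% of all tested genes were lower with separate ranges. Col3a1 had a lowest, median and highest value of 290, 391 and 651 CPM in 3-week vehicles and of 9.54, 50.04 and 151 CPM in all 5-month vehicles. These ranges did not overlap, and the log2 fold change was -2.75 (SE 0.37, adjusted p 1.26e-05). Col1a1 moved by -2.47 (SE 0.38) and Col5a1, a minor fibril chain that regulates fiber diameter, by -2.08 (SE 0.14). Of the 6 type IV chains 4 were lower, led by Col4a3 at -2.67 (SE 0.43), a chain of the kidney glomerular basement membrane. Markers of other cells moved in the same step: 7 of 8 sinusoidal endothelial, all 6 tested vascular endothelial and 5 of 10 resting stellate cell markers were lower and none of them higher, while of 8 portal fibroblast markers 1 was higher and 2 were lower. The sinusoidal markers summed to 558 to 689 CPM at 3 weeks and 257 to 506 CPM at 5 months, and the stellate cell markers to 532 to 754 and 166 to 422 CPM. The hepatocyte markers summed to 143217 to 183207 and 55900 to 123161 CPM, with 2 of 6 called higher and 1 lower after TMM scaling. Their part in the collagen differences was not tested.

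From 5 to 10 months 12 of 32 members were lower and 2 higher, against 7.41% and 6.68% of all genes, and the median was -1.08. Only 1 of the 12 lower members had separate ranges, where 0.842% of all tested genes were lower with separate ranges. Both steps use the 5-month vehicles, so their values are set side by side only: Col1a1 had -2.47 and -2.003 (SE 0.41), Col4a1 -1.66 and -0.98 (SE 0.21), and Col6a1 -1.30 and -1.17 (SE 0.32). The 2 higher members were Col5a3 and Col27a1 in each step. Col5a3 had 8.04, 9.86 and 14.1 CPM (lowest, median, highest) at 3 weeks, 18.2, 22.1 and 29.0 CPM at 5 months, and 31.3, 40.5 and 47.6 CPM at 10 months, with no overlap between neighbouring ages. Its log2 fold changes were 1.32 (SE 0.13) and 0.79 (SE 0.13). Col27a1, a fibrillar collagen best known from cartilage, had medians of 7.10, 9.53 and 29.6 CPM. Its steps were 0.84 (SE 0.30, adjusted p 0.0435) and 1.36 (SE 0.30, adjusted p 0.00551), and the first was not called without a filter on low counts (adjusted p 0.0843) or with library totals as the scale (0.66, adjusted p 0.0993). Without the technically deviating libraries, among them vehicle 9 with 36.7 CPM, the steps were 0.44 and 1.75, both called. Col5a2 had -2.99 (SE 0.69) in the second step, with 5-month vehicles 4 and 6 at 46.0 and 77.9 CPM and the other 5-month vehicles at 7.42 CPM or less. Vehicles 4 and 6 also had the highest sums of collagens without Col18a1 of their group, as given below. The part of these 2 livers in the second step was not tested. Counting the library labelled vehicle and tumor as a vehicle would leave 4 called members in the second step, 2 of them lower. In this step 2 of 8 portal fibroblast, 2 of 8 myofibroblast and 2 of 10 resting stellate cell markers were lower and 0 of 6 vascular endothelial markers were called, and their part was not tested.

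At 3 weeks, no collagen gene was called between TBT and vehicle livers by edgeR's quasi-likelihood test: 0 of 32 tested members were called, as were 0% of all genes. None had an unadjusted p under 0.05, and DESeq2 called 0 with 4 under 0.05. The estimates leaned upward, with a median log2 fold change of 0.20 and a range from -0.38 for Col11a2 to 0.97 for Col4a6, all at an adjusted p of 0.999. Col1a1 had 56.6, 82.9 and 128 CPM (lowest, median, highest) in vehicles and 30.8, 111 and 400 CPM in TBT livers, where the 400 CPM came from TBT 4. Col3a1 medians were 391 and 535 CPM with overlapping ranges, and its log2 fold change was 0.30 (SE 0.19). In TBT 4 Col1a2 was at 298.2, Col4a1 at 413 and Col5a2 at 85.6 CPM, while its Col18a1 level of 1655 CPM lay inside the range of the group. Among the most expressed members the estimates were 0.49 (SE 0.23) for Col6a3, 0.07 (SE 0.13) for Col4a1, -0.03 (SE 0.13) for Col14a1 and 0.06 (SE 0.12) for Col18a1. Without TBT 4 the count was again 0.

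At 5 months, high-risk livers held far more transcripts of fibrillar, basement membrane and type VI collagens than low-risk livers. Of 31 tested members, 22 were higher and 3 lower, beside 20.3% higher and 18.5% lower among all tested genes (edgeR, Benjamini-Hochberg). The median log2 fold change was 1.39 for the members and -0.01 for all genes. All 6 type IV and all 5 tested type VI chains were higher, as were 5 of 8 fibrillar and 3 of 4 FACIT members. The exceptions in the lower direction were Col27a1, Col13a1 and Col18a1. Of the 22 higher members 9 had ranges that did not overlap, where 2.40% of all tested genes were higher with separate ranges. Without low-risk liver 24 the counts were again 22 and 3. The summed CPM of all collagens without Col18a1 ran from 731 to 2622 in high-risk and from 323 to 516 in low-risk livers, without overlap.

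Among fibrillar genes, Col1a1 had 0.518, 11.6 and 33.2 CPM (lowest, median, highest) in low-risk livers and 31.9, 141 and 210 CPM in high-risk livers. Only low-risk liver 16 exceeded the lowest high-risk liver, number 22, and the log2 fold change was 2.97 (SE 0.38, adjusted p 4.71e-07). The lowest value belonged to low-risk liver 5, whose Col1a2, the partner chain of type I, was at 15.9 CPM and inside the range of its group. Col1a2 itself ran from 11.4 to 31.0 CPM in low-risk and from 46.2 to 192 CPM in high-risk livers and had 2.15 (SE 0.23). Col3a1 had 30.6, 51.4 and 88.6 CPM in low-risk and 114, 343 and 692 CPM in high-risk livers, so that every high-risk liver stood above every low-risk liver. Its log2 fold change was 2.33 (SE 0.28). Col5a2, a chain of type V that is built into type I and III fibers, had 2.90, 6.18 and 11.6 CPM against 32.0, 74.3 and 106 CPM, again without overlap. It had the largest log2 fold change of the members here, 3.03 (SE 0.40, adjusted p 6.97e-07). Within batch 1 alone (3 high-risk and 6 low-risk livers) Col5a2 had 3.21 and Col1a1 3.07, both called.

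Type VI and type IV chains were higher as well. Col6a3, the longest type VI chain, had 11.1, 18.1 and 35.7 CPM (lowest, median, highest) in low-risk and 38.8, 180 and 266 CPM in high-risk livers. The ranges were separate, and the log2 fold change was 2.67 (SE 0.35). Its partners Col6a2 and Col6a1 had 2.28 (SE 0.23, adjusted p 1.88e-08) and 1.86 (SE 0.20), also with separate ranges. Col4a1 had 45.0, 62.4 and 106 CPM in low-risk and 117, 205 and 455 CPM in high-risk livers. Every high-risk liver was above every low-risk liver, and the log2 fold changes of Col4a1 and Col4a2 were 1.37 (SE 0.18) and 1.39 (SE 0.15). The X-linked chain genes Col4a5 and Col4a6, found in Bowman's capsule and smooth muscle basement membranes, had 2.24 (SE 0.28) and 2.74 (SE 0.48). Col14a1 was higher by less, 0.82 (SE 0.14), with medians of 80.5 and 197 CPM, and the multiplexin Col15a1 had 1.22 (SE 0.22).

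**Figure D2:**
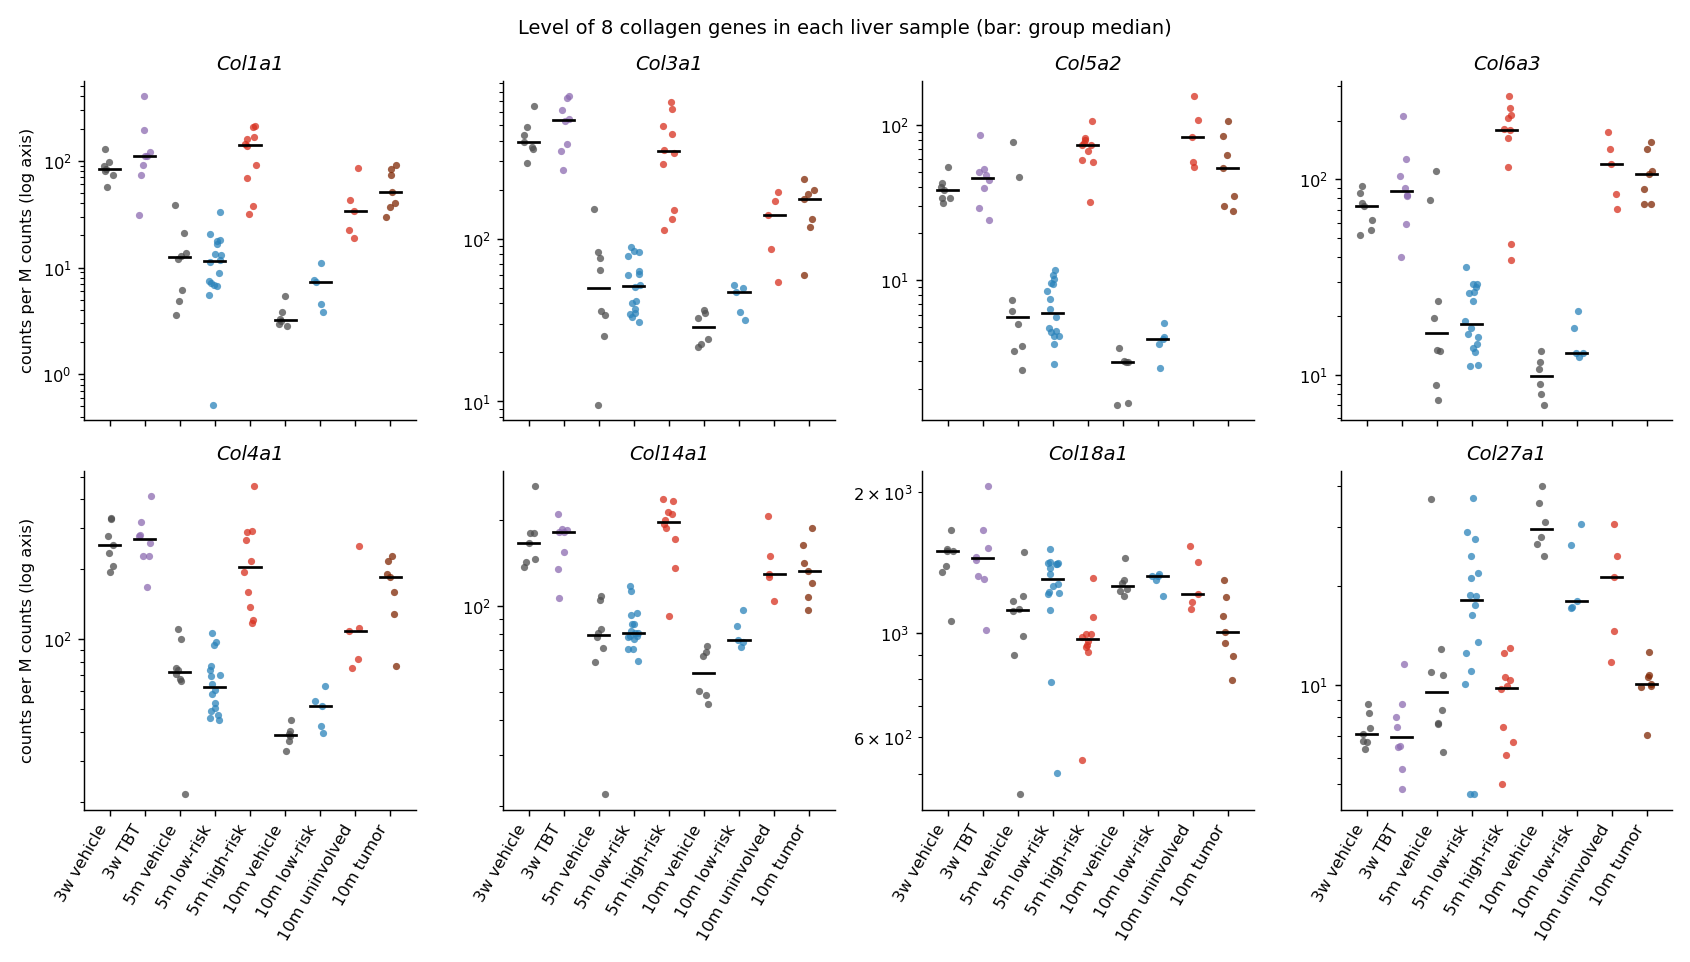
CPM (log axis) of 8 collagen genes in every sample of 9 groups, each point a sample and each bar the median of its group. Col5a2 lies at 11.6 CPM or less in all 5-month low-risk livers and at 32.0 CPM or more in all high-risk livers, while Col27a1 runs from 5.01 to 12.96 CPM in high-risk livers and up to 36.8 CPM in low-risk livers.

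Several members expressed at lower levels were higher too. Col12a1, a FACIT chain of tendon and ligament fibers, had 1.73, 3.11 and 12.95 CPM (lowest, median, highest) in low-risk and 4.61, 18.6 and 35.8 CPM in high-risk livers (2.05, SE 0.31). The type VIII chain Col8a1, made by vessel walls and cornea, had medians of 1.26 and 6.18 CPM (1.61, SE 0.32), and the FACIT chain Col16a1 of 3.50 and 11.3 CPM (1.06, SE 0.26). In each of these 3 genes the ranges overlapped. Col4a3 and Col4a4, which lie head to head on chromosome 1 with start sites 72 bases apart, had 1.26 (SE 0.36) and 2.01 (SE 0.45). Type VI chains Col6a5 and Col6a6 had 1.72 (SE 0.47) and 1.13 (SE 0.39), and the transmembrane Col23a1 had 1.52 (SE 0.54). Tested without a call were Col5a3, Col8a2, Col10a1, Col11a2, Col20a1 and Col25a1.

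Lower in high-risk livers were 3 members of different classes. Col27a1 had 4.65, 18.03 and 36.8 CPM (lowest, median, highest) in low-risk and 5.01, 9.80 and 12.96 CPM in high-risk livers. The ranges overlapped, and the log2 fold change was -1.29 (SE 0.29, adjusted p 0.00066). Col13a1, a transmembrane collagen of cell-matrix junctions, had medians of 4.92 and 2.64 CPM and -1.13 (SE 0.22). Col18a1 had 503, 1305 and 1511 CPM against 536, 971 and 1308 CPM and -0.68 (SE 0.15). None of these 3 was called within batch 1 alone, where the values were -0.65, -0.76 and -0.84. In that batch 11 members were higher, and in batch 2 alone (7 and 10 livers) 21 were higher and 3 lower. No called gene of the 15 members picked for this comparison by the naming rule given below changed direction in either batch.

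Within the high-risk group, livers 1 and 22 had the lowest sums of collagens without Col18a1, 731 and 835 CPM, while the other 8 lay between 1216 and 2622 CPM. The same livers had the lowest sums of the 8 portal fibroblast markers (93.0 and 60.5 CPM against 169 CPM or more) and of the 7 cholangiocyte markers (77.4 and 33.2 CPM against 187 CPM or more). Among vehicles the sums were highest in livers 4 and 6, at 843 and 657 CPM for collagens, with 141 and 244 CPM for portal fibroblast and 114 and 260 CPM for cholangiocyte markers. The remaining 6 vehicles had 294 to 461 CPM of collagens. Each marker sum leaned on 1 gene: in 5-month vehicles the highest means of the 2 lists were Gas6 at 62.2 CPM and Spp1 at 61.3 CPM. The next were Dpt at 12.8 CPM and Sox9 at 8.91 CPM. Whether these marker differences account for the collagen differences was not tested.

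Compared with 5-month vehicles, high-risk livers had 13 of 31 members higher and 2 lower, beside 8.47% and 7.38% of all genes, and the high-risk samples are those already described. Col1a1 ran from 3.61 to 38.8 CPM in vehicles, with a median of 12.4, and had a log2 fold change of 2.78 (SE 0.51, adjusted p 0.000757). Col3a1 had 1.95 (SE 0.38), Col6a2 1.88 (SE 0.30) and Col6a3 1.85 (SE 0.45). Col5a2 was not called (1.29, SE 0.53, adjusted p 0.0979). Vehicles 6 and 4 had 77.9 and 46.0 CPM of Col5a2, inside the high-risk range, and the other 6 had at most 7.42 CPM. With library totals as the scale Col5a2 was called (1.57, adjusted p 0.0288). Col13a1 (-1.07, SE 0.28) and Col18a1 (-0.65, SE 0.19) were lower, and with library totals Col18a1 was not called (-0.29, adjusted p 0.223). Of the 13 higher members 2 had separate ranges, beside 0.887% of all genes. These calls rest on both batches: with batch 1 alone, 0 members were called by edgeR and 13 reached an unadjusted p below 0.05. The second batch had only vehicle 8. Without the technically deviating libraries 16 were higher and 2 lower.

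No collagen was called by edgeR between low-risk livers of 5 months and vehicles, with 0 of 31 members and 0% of all genes called and 8 members at an unadjusted p under 0.05. DESeq2 called 1, Col5a2, at -1.73 (adjusted p 0.0478), where edgeR gave -1.74 (SE 0.50, adjusted p 0.394). The members' median was -0.40. Col1a1 had a log2 fold change of -0.19 (SE 0.45) and Col4a1 of -0.40 (SE 0.21).

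The same classes were higher at 10 months in uninvolved livers of high-risk mice. In uninvolved against low-risk livers 25 of 34 tested members were higher and 1 lower, beside 27.7% and 24.7% of all genes, with a members' median of 1.25 against 0.05 for all genes. All 6 type IV, all 5 tested type VI and all 3 network members were higher, with 5 of 9 fibrillar and 4 of 5 FACIT members. Of the 25 higher members, 21 had separate ranges, where 19.2% of all tested genes were higher with separate ranges. Against vehicles 24 of 34 were higher and 3 lower, beside 31.2% and 26.5% of all genes, and 21 were higher with separate ranges, beside 22.2%. Both comparisons share the uninvolved samples, so their values are given side by side.

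Col5a2 stood out. The 5 low-risk livers had 2.72, 3.90, 4.21, 4.30 and 5.26 CPM, and the 5 uninvolved livers had 53.5 (the summed libraries 3 and 6), 57.4, 83.7, 107 and 152 CPM. Every uninvolved liver stood far above every low-risk liver, and vehicles ranged from 1.58 to 3.64 CPM. The log2 fold changes were 4.22 (SE 0.30, adjusted p 4.57e-08) against low-risk livers and 4.78 (SE 0.29, adjusted p 7.38e-09) against vehicles. Col1a1 had 3.82, 4.60, 7.30, 7.67 and 11.1 CPM in low-risk and 19.1, 22.6, 33.5, 43.0 and 86.1 CPM in uninvolved livers. Its highest value was in the summed libraries 3 and 6, which had the lowest Col5a2 value, and its lowest was in liver 5, which had the highest. The log2 fold changes were 2.34 (SE 0.39) and 3.22 (SE 0.38), and counting the library labelled vehicle and tumor among the vehicles gave a log2 fold change of 1.27 against vehicles, not called (edgeR adjusted p 0.218). Col3a1 had 31.6, 35.4, 47.2, 49.7 and 52.1 CPM in low-risk livers against 54.5, 86.5, 139, 170 and 194 CPM. The ranges nearly touched, with log2 fold changes of 1.34 (SE 0.28) and 1.86 (SE 0.27).

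Col6a3 had 12.3, 12.8, 12.98, 17.3 and 21.2 CPM in low-risk and 70.6, 84.5, 119, 144 and 174 CPM in uninvolved livers. The groups were well apart, at 2.70 (SE 0.23) against low-risk livers and 3.27 (SE 0.23) against vehicles. Col6a2 and Col6a1 had 2.41 (SE 0.27) and 1.71 (SE 0.19) against low-risk livers. Col4a1 had 39.7, 42.6, 51.7, 54.5 and 62.9 CPM against 75.4, 82.5, 108, 111 and 251 CPM, where 251 CPM belonged to the summed libraries 3 and 6. Its log2 fold change was 1.10 (SE 0.26), next to 1.24 (SE 0.28) for Col4a2, 2.22 (SE 0.19) for Col4a5 and 2.84 (SE 0.45) for Col4a6. Col1a2, Col15a1 and Col14a1 had 1.48 (SE 0.25), 1.38 (SE 0.29) and 0.59 (SE 0.17). Col14a1, the second most abundant member per kilobase, had 71.8, 74.9, 76.1, 85.1 and 96.5 CPM in low-risk and 104.2, 126, 129.8, 150.1 and 207 CPM in uninvolved livers, again without overlap. Members expressed at lower levels were called higher too. Col12a1 had 1.70 (SE 0.39), Col8a1 1.35 (SE 0.37), Col4a4 1.86 (SE 0.22), Col10a1 1.51 (SE 0.41) and Col8a2 1.13 (SE 0.39).

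Col22a1, a FACIT member of tissue junctions, was called from very few counts. It had no count in 3 of 5 low-risk livers and at most 0.143 CPM in the others, and 0.399, 0.438, 0.538, 0.662 and 1.40 CPM in uninvolved livers. The groups were separate, and the fitted log2 fold change of 3.57 (SE 0.73) depends on how low counts are handled. Lower in uninvolved livers were Col13a1, at -0.65 (SE 0.15) against low-risk livers and -0.70 (SE 0.15) against vehicles, and, against vehicles, Col27a1 (-0.94, SE 0.22, adjusted p 0.00143) and Col18a1 (-0.30, SE 0.12, adjusted p 0.0365). Against low-risk livers Col27a1 had -0.37 (SE 0.22) and Col18a1 -0.24 (SE 0.12), neither called, and whether these differ from the values against vehicles was not tested. In CPM the Col18a1 means were 1282 ± 87.4 (SD, n = 6) in vehicles and 1291 ± 177 (SD, n = 5) in uninvolved livers, so per library total the gene was not lower: with library totals as the scale its log2 fold change was 0.012 (adjusted p 0.911), and with RLE scaling it was -0.30 (adjusted p 0.0362) as with TMM. The Col18a1 call was also lost when vehicle 4, or uninvolved liver 1, 5 or the summed 3 and 6, was left out (adjusted p 0.0850 to 0.132).

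**Figure D3:**
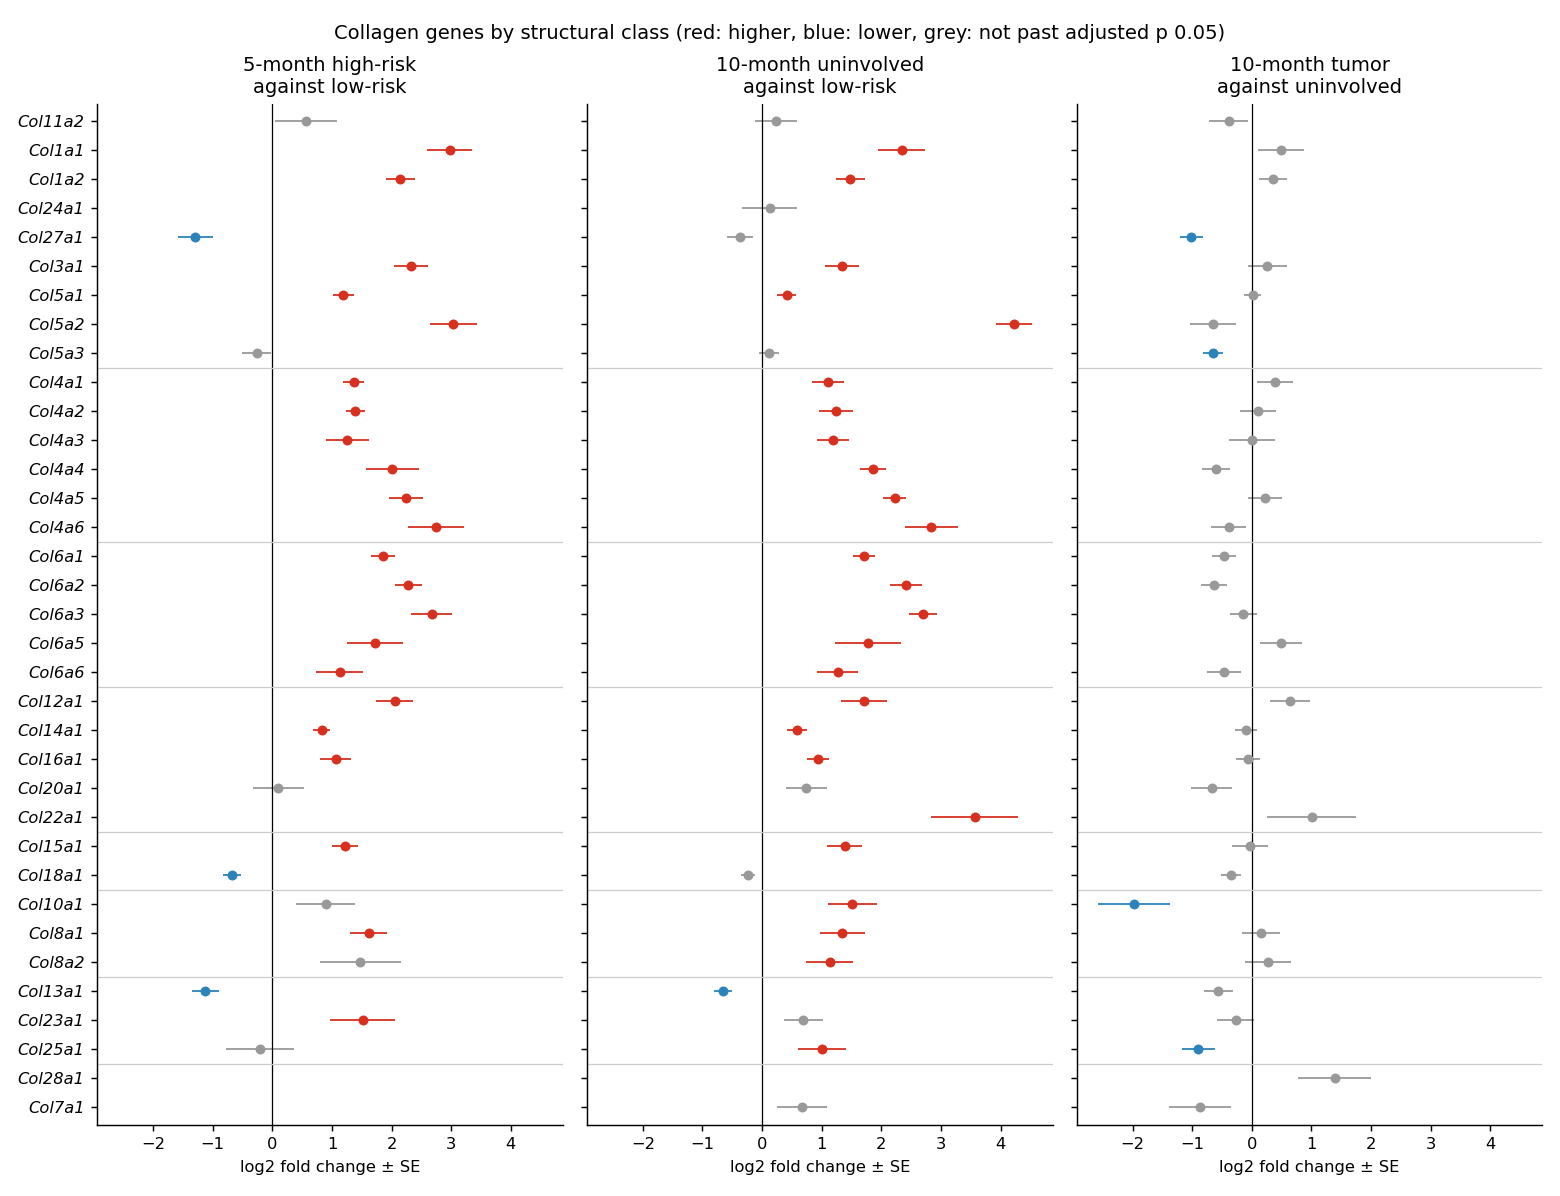
Log2 fold change ± SE of each tested collagen gene, grouped by structural class, in 5-month high-risk against low-risk, 10-month uninvolved against low-risk and tumor against uninvolved liver (red higher, blue lower, grey not past an adjusted p of 0.05). The first 2 panels hold 22 and 25 higher members, with Col5a2 at 3.03 and 4.22, and the tumor panel holds 4 lower members.

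Low-risk livers of 10 months gave 0 called members of 34 against vehicles, as were 0% of all genes, with 5 members at an unadjusted p under 0.05 in edgeR and 0 called (8 under 0.05) by DESeq2. The log2 fold changes ran from -0.86 for Col6a5 to 0.88 (SE 0.38) for Col1a1, with a median of 0.22. Col1a1 overlapped between the groups, with 2.86, 3.22 and 5.43 CPM (lowest, median, highest) in vehicles. Whether the risk difference changed from 5 to 10 months was tested as an interaction, in which 0.180% of all genes were called higher and 0.267% lower. Of 34 members 0 were called and 4 had an unadjusted p under 0.05. Col5a2 had the interaction nearest to the threshold, 1.19 (SE 0.34, adjusted p 0.106), and DESeq2 called it at 1.25 (adjusted p 0.0270). Col3a1 had -0.99 (SE 0.44) and Col1a1 -0.64 (SE 0.64). By counts, 21 of the 31 members tested at both ages were higher in high-risk livers at both, beside 14.8% of all genes. Col18a1, Col23a1 and Col27a1 were called at 5 months and not at 10, and Col8a2, Col10a1, Col22a1 and Col25a1 at 10 months and not at 5. With library totals as the scale Col8a2 and Col10a1 were called at 5 months too (adjusted p 0.0275 and 0.0411) and Col23a1 at 10 months (0.0271).

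Col3a1 and Col5a2 lie tail to tail on chromosome 1, 24614 bases apart, and their balance differed between groups. The ratio of Col3a1 to Col5a2 counts was 11.3 (median, range 7.49 to 15.4) in 10-month vehicles and 11.6 (8.41 to 12.1) in low-risk livers. In uninvolved livers it was 2.03 (0.510 to 3.62), below every low-risk and vehicle liver, and in tumors 3.29 (0.559 to 6.66). The lowest ratio among uninvolved livers and the lowest among tumors both came from mouse 7, in which Col3a1 was at 54.5 and 59.5 CPM and Col5a2 at 107 and 106 CPM. At 5 months the median was 5.04 (1.53 to 7.63) in high-risk and 8.63 (5.27 to 13.9) in low-risk livers, which overlapped. The 5-month vehicles had 9.27 with a range of 1.06 to 12.3, so that their lowest value, in liver 6, was below every high-risk liver. The 3-week medians were 11.2 in vehicle and 11.3 in TBT livers.

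The head-to-head pair Col4a1 and Col4a2 kept a narrower balance: the ratio of their counts stayed between 1.45 and 2.79 in all 73 samples with repeat libraries summed, with group medians of 1.75 to 2.05 and 1.52 in the library labelled vehicle and tumor. Over the same samples Col4a1 itself ranged from 21.5 to 455 CPM. The pair Col4a5 and Col4a6, with start sites 1309 bases apart on the X chromosome, did not keep a fixed balance. Its median ratio was 18.6 in 3-week vehicles and 2.47 in uninvolved livers, where the median Col4a6 level was 0.681 and 2.37 CPM. For the type I chains the median ratio of Col1a1 to Col1a2 was 0.361 in 10-month vehicles, 0.440 in low-risk livers, 0.729 in uninvolved livers and 0.781 in tumors. These ratios were not tested.

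Few collagens were called between tumors and uninvolved livers. Of 34 tested members 4 were lower and 0 higher, beside 10.5% and 7.55% of all genes (edgeR). The share of lower members was near that of all genes, so the count does not set the collagens apart. DESeq2 called 5 lower and 0 higher, and the median log2 fold change was -0.12. Col27a1 had 11.7, 14.5, 21.3, 24.6 and 30.7 CPM in uninvolved livers and 7.03, 10.0 and 12.5 CPM (lowest, median, highest) in tumors. Only tumor 6 exceeded the lowest uninvolved value, and the log2 fold change was -1.02 (SE 0.19, adjusted p 0.00579). Col10a1, the hypertrophic cartilage collagen, had 0.459, 0.548, 1.27, 2.22 and 2.29 CPM in uninvolved livers and 0, 0.233 and 0.844 CPM in tumors (-1.98, SE 0.61, adjusted p 0.0378). Col25a1, a transmembrane collagen of neurons, had 1.10 to 1.61 CPM against 0.389 to 1.30 CPM (-0.90, SE 0.28, adjusted p 0.0401), and Col5a3 32.3 to 72.6 CPM against 26.5 to 37.6 CPM (-0.65, SE 0.17, adjusted p 0.0179). The groups overlapped for each of the 4. Some uninvolved livers and tumors carry the same mouse number. With this number as a block over 4 pairs, without mice 3 and 6, the calls were Col27a1 (-1.08, adjusted p 0.0146), Col5a3 (-0.69) and Col10a1 (-2.16) downward and Col4a1 (0.77, adjusted p 0.02465) upward, and Col25a1 was not called (adjusted p 0.0568). Over 6 pairs, which enter uninvolved libraries 3 and 6 as separate mice although their counts are nearly alike, the calls were Col27a1 (-0.77, adjusted p 0.0348), Col5a3 (-0.49) and Col4a4 (-0.73), while Col10a1 and Col25a1 were not called (adjusted p 0.0841 and 0.0946). Leaving out tumor 1, 5 or 12 or uninvolved liver 5 left 2 called members, and leaving out uninvolved liver 1 left 1. Of the 4, Col27a1 alone was called in every fit that left out a sample.

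Fibrillar, type VI and basement membrane genes had estimates of either sign between tumor and uninvolved liver: Col1a1 0.49 (SE 0.38), Col3a1 0.26 (SE 0.32), Col5a2 -0.65 (SE 0.38), Col6a3 -0.14 (SE 0.22) and Col4a1 0.39 (SE 0.30), none called without the block. Col1a1 had 29.6, 51.1 and 91.2 CPM (lowest, median, highest) in tumors, Col6a3 74.7, 106 and 156 CPM, and Col4a1 76.9, 185 and 228 CPM, each range overlapping that of the uninvolved livers. Type VI partner Col6a2 came nearest to a call, at -0.64 (SE 0.21, adjusted p 0.0521), with 10.5, 15.8 and 24.02 CPM in tumors and 16.4 to 37.6 CPM in uninvolved livers. Without the summed uninvolved libraries 3 and 6, Col1a1 and Col4a1 were called higher in tumors, at 0.98 and 0.82 (adjusted p 0.0445 and 0.0229). Against vehicles, tumors had 22 of 32 members higher and 4 lower, beside 24.8% and 21% of all genes. Col1a1 had 3.73 (SE 0.30), Col5a2 4.18 (SE 0.41), Col6a3 3.15 (SE 0.20), Col12a1 2.59 (SE 0.34) and Col4a1 1.82 (SE 0.18), and 20 of the 22 higher members had separate ranges, beside 17.4% of all genes. Lower than in vehicles were Col27a1 (-1.92, SE 0.14, adjusted p 5.06e-07), Col13a1 (-1.23, SE 0.21), Col18a1 (-0.60, SE 0.13) and Col5a3 (-0.58, SE 0.09). Col27a1 had 24.6 to 40.1 CPM in vehicles, above every tumor.

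**Figure D4:**
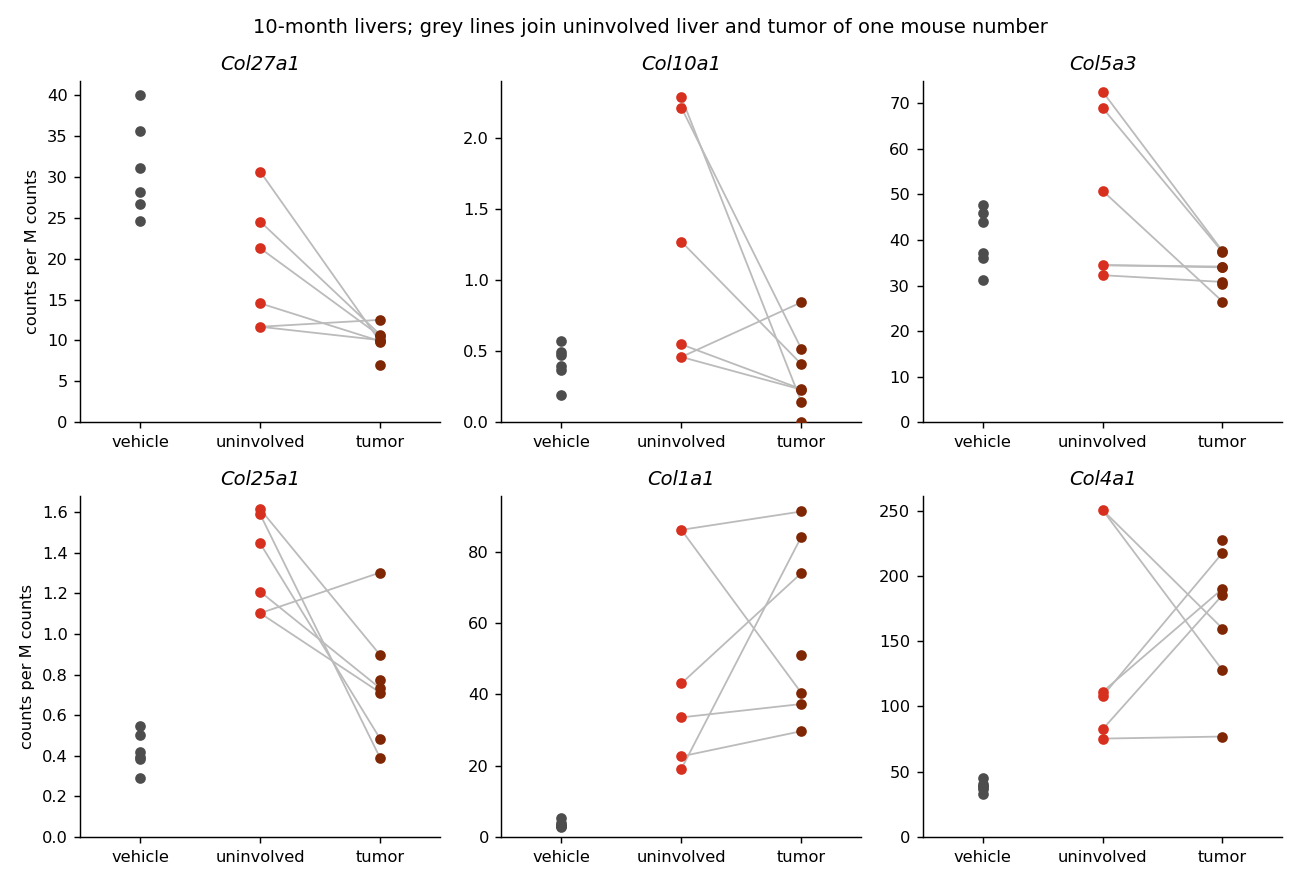
CPM of 6 collagen genes in 10-month vehicle livers, uninvolved livers and tumors, each point a sample, with grey lines joining samples of the same mouse number. Col27a1 lies at 24.6 to 40.1 CPM in vehicles and at 7.03 to 12.5 CPM in tumors, while Col1a1 lies at 2.86 to 5.43 CPM in vehicles and at 19.1 CPM or more in both other groups.

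Gene lists for the trimming, crosslinking, breakdown and binding of collagen were mainly higher where the collagens were. The breakdown list also holds inhibitors of breakdown. Genes that fold collagen went in both directions. In 5-month high-risk against low-risk livers, 7 of 20 tested synthesis enzymes and chaperones were higher and 3 lower (median 0.14), including the lysyl hydroxylase Plod2 (1.74, SE 0.32) and the prolyl isomerase Fkbp10 (1.89, SE 0.30). Of 11 processing and crosslinking genes 8 were higher and 1 lower (median 1.40). The lysyl oxidases Lox and Loxl1 had 2.63 (SE 0.36) and 2.53 (SE 0.33), the N-propeptidase Adamts2 1.91 (SE 0.24), and the C-propeptidase Bmp1 was the lower one at -0.79 (SE 0.11). Of 12 genes of the breakdown list, which includes metalloproteinase inhibitors, 9 were higher (median 1.80). The gelatinase Mmp2 had 2.62 (SE 0.28), the collagen uptake receptor Mrc2 2.38 (SE 0.30) and the inhibitor Timp3 1.31 (SE 0.16). Of 9 receptors 7 were higher (median 1.05), including Adgrg1 (1.54, SE 0.22) and Ddr1 (2.68, SE 0.40), a receptor tyrosine kinase for collagen. Among 26 TGF-beta ligands and matrix partners 25 were higher and 1, Fn1, was lower (median 1.60). Fibrillin Fbn1 had 2.14 (SE 0.19), nidogen Nid1 1.65 (SE 0.16) and elastin Eln 2.95 (SE 0.31). All of these stand beside 20.3% higher and 18.5% lower among all genes.

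At 10 months, uninvolved against low-risk livers gave 7 higher and 6 lower of 20 synthesis genes (median -0.01), 8 higher and 2 lower of 11 processing genes (median 1.17), 9 of 12 breakdown genes higher (median 1.88), 6 of 9 receptors higher (median 1.05), and 22 higher and 1 lower of 26 matrix partners (median 1.47). Among all genes 27.7% were higher and 24.7% lower, shares that those of the synthesis genes are near. With library totals as the scale 8 synthesis genes were higher and 0 lower. Loxl1 had 2.60 (SE 0.23), from a median of 2.10 CPM to 17.2 CPM, Mmp2 2.59 (SE 0.25), Timp3 1.65 (SE 0.10), Plod2 2.09 (SE 0.30) and Ddr1 3.17 (SE 0.50). Periostin, Postn, was the lower matrix partner at -1.03 (SE 0.16), with a median of 7.06 CPM in uninvolved and 13.4 CPM in low-risk livers, and was higher again in tumors than in uninvolved livers (1.05, SE 0.24, adjusted p 0.0132). Between tumor and uninvolved liver the other upward call in these lists was Mmp13 (1.70, SE 0.45). Downward were Bgn (-0.83, SE 0.18), Eln (-0.62, SE 0.18), Timp3 (-0.47, SE 0.14) and Ddr2 (-0.56, SE 0.18). With Postn these were 2 of 12 breakdown, 1 of 9 receptor and 3 of 26 matrix partner genes, beside 7.55% higher and 10.5% lower among all genes. The receptor call was lost with library totals as the scale. Without uninvolved liver 1, 5 or 7, no breakdown or receptor gene was called.

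Portal fibroblast markers were higher in both comparisons with low-risk livers, and myofibroblast and resting stellate cell markers were called in part. In 5-month high-risk against low-risk livers all 7 tested portal fibroblast markers were higher, and their summed CPM was 60.5 to 299 against 43.2 to 84.7. Gas6 was the largest part of this sum in low-risk livers, with a mean of 39.4 CPM beside 5.42 CPM for Dpt, the next. Of 8 myofibroblast markers 4 were higher (summed 86.5 to 257 CPM against 37.1 to 73.9 CPM): Vim, Pdgfra, Acta2 and S100a6 passed, and Tagln, Myl9, Cnn1 and Tpm2 did not. Acta2, the smooth muscle actin of activated stellate cells, had 0.83 (SE 0.25). Of 10 resting stellate cell markers 5 were higher and 2 lower, the lower ones being Lrat (-0.65, SE 0.19) and Ecm1 (-0.96, SE 0.21), and the summed ranges of 370.5 to 681 and 238 to 526 CPM overlapped. The 7 cholangiocyte markers summed to 33.2 to 450 CPM against 25.1 to 228 CPM, with 6 higher. Spp1 was the largest part of this sum in low-risk livers, with a mean of 39.9 CPM beside 7.85 CPM for Epcam, the next. The Epcam mean leaned on extreme values, with a median of 1.70 and a highest value of 100 CPM. Krt19 likewise had a median of 0.966 and a highest value of 82.0 CPM, and the Sox9 median was 5.49 CPM. Such values also widen the low-risk range of the sum. The 5 mesothelial markers summed to 6.403 to 17.8 CPM against 3.46 to 10.5 CPM, with 2 higher. Of 8 sinusoidal endothelial markers 1 was higher and 6 lower, and 5 of 6 hepatocyte markers were lower. Among all genes 20.3% were higher and 18.5% lower.

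In uninvolved livers of 10 months all 8 portal fibroblast and all 7 cholangiocyte markers were higher than in low-risk livers. Their sums were 112 to 239 CPM against 54.9 to 100.02 CPM and 121 to 272 CPM against 36.1 to 54.1 CPM, both without overlap. These sums also leaned on 1 gene each: in 10-month vehicles Gas6 had a mean of 48.4 CPM and Spp1 of 31.7 CPM. The next markers of the 2 lists were Dpt at 5.27 CPM and Sox9 at 6.59 CPM. Of 8 myofibroblast markers 3 were higher, and Acta2 was not called (0.37, SE 0.22, adjusted p 0.165). Of 10 resting stellate cell markers 3 were higher and 1 lower. For both lists the share of higher markers was near the 27.7% of all genes. Some defining markers were near 0: the portal fibroblast gene Pi16 had a 5-month median of 0.559 CPM in the high-risk and of 0.119 CPM in the low-risk group, and the contractile gene Cnn1 of 0.565 and 0.442 CPM. At 3 weeks 0 genes of any list were called between TBT and vehicle livers (edgeR). The part of cell composition in the collagen differences was not tested.

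**Figure D5:**
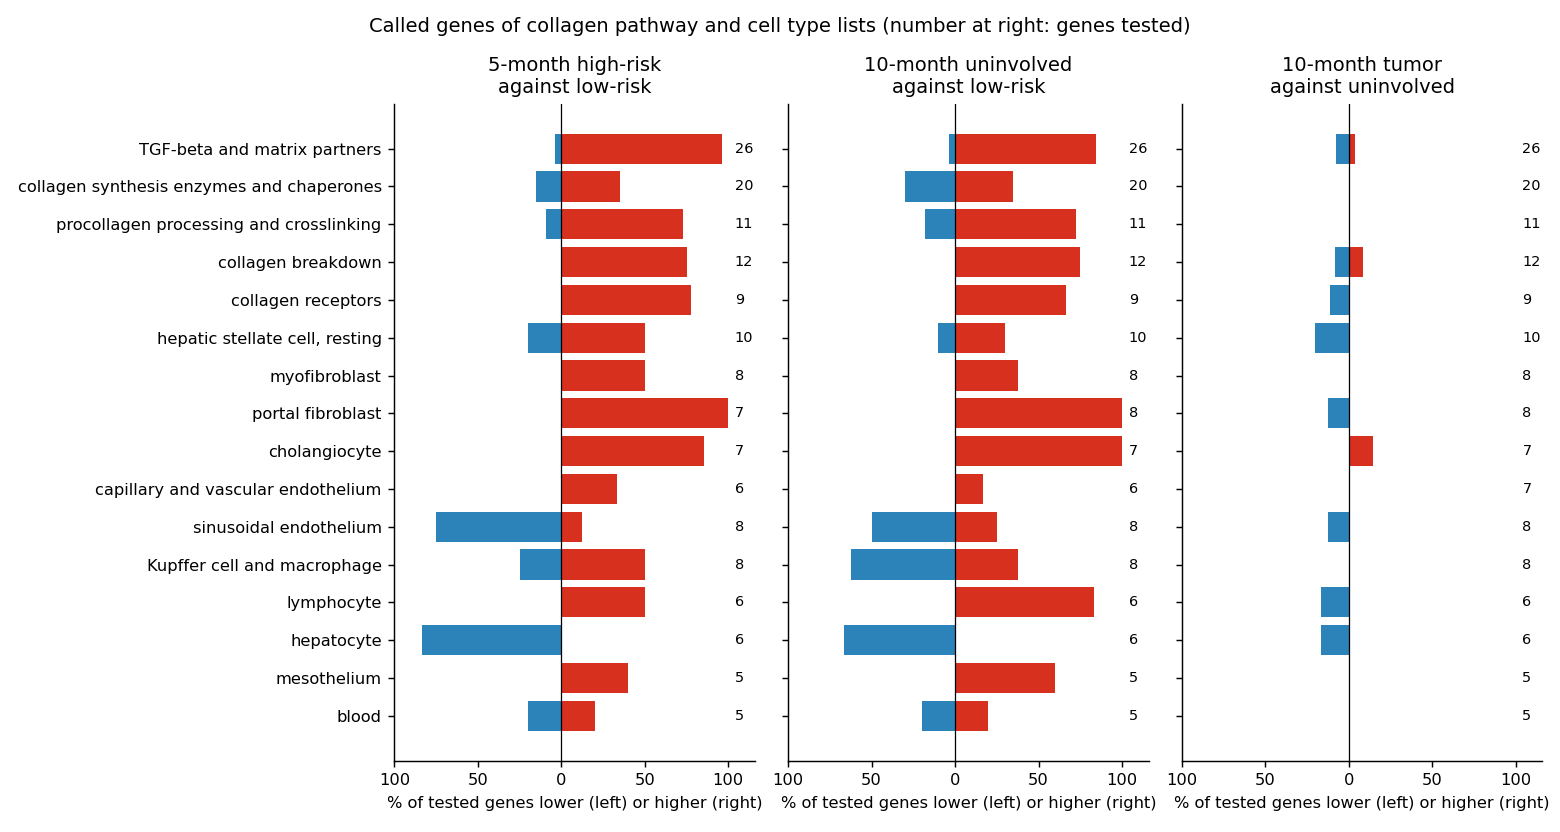
Percent of the tested genes of 16 lists called lower (left of 0) or higher (right) in 3 comparisons, with the number tested at the right of each bar. Matrix partners (25 of 26 higher) and portal fibroblast markers (7 of 7 higher) fill the right side at 5 months, and the tumor panel is nearly empty.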

How the data were processed

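Liver RNA was extracted with DNase treatment and sequenced from TruSeq Stranded Total RNA libraries, per the labels' protocols. The authors deposited one table of read counts per gene, adjusted for batch with ComBat-seq per the file name. Trim Galore, HISAT2, featureCounts and the mm10 build are named in the submitters' processing notes. Their versions, settings and the strand setting of the counting are not given in the sources used here, so reads in overlapping genes (Col4a1 and Col4a2) are uncertain. ComBat-seq moves counts between batches, and its group setting is likewise not given.

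From these counts, edgeR 4.0.16 (R 4.3.3) fitted robust quasi-likelihood models over all genes passing filterByExpr, with TMM scaling, batch as a covariate at 5 months, and Benjamini-Hochberg adjustment at 0.05. The SE of a fold change was derived from its F value. CPM are counts per 1000000 of the library total, and lengths are union exons of GENCODE M21. Library totals of 2.832 M to 45.45 M counts set the precision of low genes. Both libraries of 3-week vehicle 3 were summed, as were uninvolved libraries 3 and 6. The counts of the latter differed less (median chi-square per gene 0.562) than any other pair of libraries within a group (1.43 or more). Pairs across groups were not compared in this way. Age steps used batch 1 vehicles only. Tumors and uninvolved livers with the same number in their titles were taken as the same mouse, which is uncertain for 3 and 6, and same-numbered samples correlated at -0.17 to 0.61 over 6 pairs and at 0.013 to 0.54 over 4 pairs without mice 3 and 6. The alternatives were RLE scaling, no filter, DESeq2 1.42.0, batch choices, mouse number as a block, leaving out samples, separate repeat libraries and, chosen after seeing the data, library totals in place of TMM and leaving out low-risk liver 24. The fits were tested on simulated data.

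The members and gene lists were chosen with earlier results of these data known. The naming rule picked in each comparison 12 members, up to 5 more in each direction by fold change, and up to 3 genes of each pathway list by adjusted p. Further members given with values lie outside this rule. Marker genes named singly, the gene pairs whose ratios are given and single lower genes of a list were chosen after their values were seen.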

Additional observations from a re-analysis of the deposited data

Results flagged for a closer look

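Of 96 groups of 4 to 10 samples examined for the 12 members given throughout, 10 had 1 sample farther from the rest than Dixon's 95% limit allows. Samples were compared in CPM, not in logs, and several of the 10 came from the same library. The limit assumes normally distributed values, so this number cannot be set against chance. At 3 weeks, TBT 4 was the highest TBT liver for Col1a1 (399.5 CPM, next 193.1), Col4a2 (226 CPM, next 158) and Col5a2 (85.6 CPM, next 51.6), and this library also carried Xist although labelled male. Vehicle 5 of that age was highest for Col1a2 (166 CPM, next 124) and Col14a1 (263 CPM, next 180.3). At 5 months, high-risk liver 25 had 455 CPM of Col4a1 (next 290.4), and high-risk liver 15, a technically deviating library, had the lowest Col18a1, 536 CPM (next 911). At 10 months, the summed uninvolved libraries 3 and 6 had 251 CPM of Col4a1 (next 111) and 145 CPM of Col4a2 (next 60.2), and vehicle 4 had the lowest Col4a2, 14.8 CPM (next 18.5).

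The library labelled both vehicle and tumor, which no comparison used, stood above every 10-month vehicle liver in 11 of the 12 members. It had 93.7 CPM of Col1a1 (highest vehicle 5.43), 54.0 CPM of Col1a2 (13.5), 61.8 CPM of Col3a1 (36.3), 73.6 CPM of Col4a1 (45.1) and 48.5 CPM of Col4a2 (20.5). It also had 37.3 CPM of Col5a2 (3.64), 27.4 CPM of Col6a1 (8.83), 23.6 CPM of Col6a2 (5.08), 102 CPM of Col6a3 (13.3), 146 CPM of Col14a1 (72.2) and 19.6 CPM of Col15a1 (7.06). Its Col18a1 level, 637 CPM, was below that of every 10-month vehicle. This is a single library of 11.5 M counts with 14.1% mitochondrial counts.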

How the results depend on the processing

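Of the called members picked by the naming rule only Col18a1 turned its direction under an alternative: in uninvolved against vehicle livers it had 0.012 (edgeR adjusted p 0.911) with library totals in place of TMM. Called members given outside that rule are not covered by this statement. Counts of called members that changed by over 1.5 times are given here. In 5-month high-risk against low-risk livers batch 1 alone gave 11 called members. Against vehicles, batch 1 alone gave 0, as did the replicate block over 3 pairs (10 members at an unadjusted p under 0.05), where DESeq2 gave 14 higher and 3 lower. DESeq2 called 1 member in 5-month low-risk against vehicle livers and 1 in the change of the risk difference. Counting the library labelled vehicle and tumor as vehicle left 4 called members between 5 and 10 months. Leaving out single samples gave 1 to 6 in tumor against uninvolved liver, 23 to 26 in uninvolved against low-risk, 26 to 28 in uninvolved against vehicle, 25 to 28 in tumor against vehicle, and 0 in 10-month low-risk against vehicle and in the interaction. Without low-risk liver 24 of 5 months 25 members were called against high-risk and 0 against vehicle livers. The causes were not tested. Of 770 counts over the pathway gene lists under an alternative, 688 stayed within 1.5 times. The other 82 were mainly in tumor against uninvolved liver (22), 10-month against 5-month vehicles (16), 5-month high-risk against vehicle (14) and the interaction (13). In 5-month high-risk against low-risk livers all 5 lists had fewer calls with batch 1 alone (2 of 20 synthesis, 4 of 11 processing, 5 of 12 breakdown, 2 of 9 receptor and 17 of 26 matrix partner genes).

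In comparisons other than tumor against uninvolved liver, samples of different groups share only a replicate number. With that number as a block, uninvolved against vehicle livers had 21 higher and 3 lower members, tumor against vehicle 19 and 4, and the 3-week and low-risk comparisons 0. Same-numbered samples correlated best with each other in 4 of 7 pairs at 3 weeks. At 5 months this held in 2 of 3 pairs for high-risk and 3 of 5 for low-risk against vehicle. At 10 months it held in 1 of 4 pairs for uninvolved, 1 of 4 for tumor and 0 of 2 for low-risk against vehicle. Mouse number as a block in tumor against uninvolved liver gave 0 higher and 3 lower over 6 pairs, and 1 higher (Col4a1) and 3 lower over 4 pairs. There, same-numbered samples correlated best with each other in 1 of 6 pairs, and in 3 of 4 without mice 3 and 6. Low-risk and high-risk livers share no numbers.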
